A study of Mus musculus with 4 samples.

Results

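Alternative first exons were compared between the main cell classes of the mouse retina. The genes described are Ensembl genes with 2 or more multi-exon isoforms in the transcript models deposited by the authors whose first exons, read along the gene's strand, fall into 2 or more groups that do not overlap. Of 13452 Ensembl genes in the counts table, 12233 had at least 1 multi-exon model and 7826 had at least 2. Of these, 3229 genes had 2 or more first-exon groups, and they held 8234 groups. For each gene the isoform counts were summed per group, and each group's share of the gene's grouped counts was compared between cell classes with at least 50 such counts. A comparison between classes was possible for 1846 genes, of which 382 reached 50 counts in all 6 classes. The other 1383 genes had 50 counts in 1 class or in none and are not compared.

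A first exon is the exon that carries the 5′ end of a transcript. Many genes have more than 1 promoter, and a cell type that uses another promoter makes a transcript with another first exon spliced to shared downstream exons. Depending on where the start codon lies, such a transcript encodes the same protein, a protein with another amino terminus, or a shortened one. In neurons the textbook cases include Gnas and Dclk1, and in the retina Ctbp2, whose alternative start gives the ribbon protein RIBEYE.

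The cells came from papain-treated retinas of C57BL6/J mice, an inbred strain; all animals were male and wild-type. The 4 single-cell cDNA libraries used 10x Genomics chemistry and were read as long reads on a nanopore instrument. Of the libraries, 2 had no enrichment, 1 of them from postnatal day 40 and the other without a stated age. A library from postnatal week 8 is labelled CD73 enrichment and a library from postnatal month 4 CD90.2 enrichment. Photoreceptors carry CD73 on their surface, and many neurons, ganglion cells among them, carry CD90.2. In the protocol CD73-positive cells were removed with magnetic beads and CD90.2-positive cells were retained, whereas the design text names cell sorting by fluorescence. The table has 1 count column each for amacrine cells, bipolar cells, cones, Müller glia, rods and ganglion cells and names no library. A class is therefore 1 sample without replicates, classes and libraries cannot be told apart, and differences are given by size without a test. Shares carry exact Clopper-Pearson 95% intervals, which treat counts as independent and cover counting error only. Several reads can come from 1 molecule, and where they do the intervals are too narrow.

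The columns held 55437340 counts for rods, 48248340 for amacrine cells, 29010038 for bipolar cells, 7307134 for cones, 6133094 for Müller glia and 3509890 for ganglion cells. The genes with alternative first exons took 10.8 to 12.9% of each column. At 50 counts, 2168 of them could be read in rods, 1741 in amacrine cells, 1620 in bipolar cells, 767 in Müller glia, 762 in cones and 538 in ganglion cells. All 6 markers listed for each class were highest in the column of that class, except that 5 of 6 were for Müller glia. The amacrine markers were low in their own column, at a sum of 686 CPM (counts scaled to a column total of 1000000), beside 699 CPM of ganglion and 981 CPM of Müller glia markers there. Rod markers were also found outside the rod column. Relative to rods, their summed level was 20.5% in cones, 6.85% in Müller glia, 1.89% in bipolar cells, 0.632% in amacrine cells and 0% in ganglion cells, where 0 counts fell on rod or cone markers. Markers of microglia and pigment epithelium summed to 1238 and 8826 CPM in the Müller glia column. These levels are given again beside results they move with; their part in those results was not tested.

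Stretches of DNA upstream of starts are shown first. They precede starts between which the counts below differ, and for Casz1 the start that led in rods, cones, bipolar cells and Müller glia. Each is the 120 bases before the start site in RefSeq, on mouse build GRCm38.p6, written 5′ to 3′ along the gene's strand. Capitals mark, on either strand, TAATCC (a motif of the photoreceptor factor Crx), TATAAA (the TATA box), CACGTG (the E-box) and CCAAT (the CCAAT box). The genes are Prkcz, an atypical protein kinase C, Gng13, a G protein gamma subunit, Egfl7, a secreted vascular protein, Eml2, a microtubule-binding protein, and Casz1, a zinc finger transcription factor. Start numbers count first-exon groups of the gene from upstream to downstream.
Prkcz start 1, minus strand, chr4:155361429-155361548: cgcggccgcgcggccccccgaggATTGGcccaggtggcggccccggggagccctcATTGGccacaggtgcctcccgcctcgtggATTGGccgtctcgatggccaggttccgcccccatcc
Prkcz start 2, minus strand, chr4:155345790-155345909: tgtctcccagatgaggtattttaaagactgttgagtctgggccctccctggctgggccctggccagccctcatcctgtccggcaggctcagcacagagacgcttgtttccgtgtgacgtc
Gng13 start 2, plus strand, chr17:25717052-25717171: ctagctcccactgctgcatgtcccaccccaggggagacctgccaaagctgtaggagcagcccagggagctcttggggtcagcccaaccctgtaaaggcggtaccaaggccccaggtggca
Gng13 start 3, plus strand, chr17:25717408-25717527: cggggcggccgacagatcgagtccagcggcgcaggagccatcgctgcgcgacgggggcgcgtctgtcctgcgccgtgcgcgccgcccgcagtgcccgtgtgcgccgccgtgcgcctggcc
Egfl7 start 1, plus strand, chr2:26583745-26583864: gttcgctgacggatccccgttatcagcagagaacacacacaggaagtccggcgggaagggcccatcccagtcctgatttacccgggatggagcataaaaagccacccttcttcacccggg
Egfl7 start 2, plus strand, chr2:26586516-26586635: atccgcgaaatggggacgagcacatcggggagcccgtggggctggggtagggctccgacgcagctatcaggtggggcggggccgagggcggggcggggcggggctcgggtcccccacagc
Eml2 start 1, plus strand, chr7:19176301-19176420: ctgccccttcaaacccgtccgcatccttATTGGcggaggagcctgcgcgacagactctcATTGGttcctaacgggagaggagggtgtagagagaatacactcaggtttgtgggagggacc
Eml2 start 2, plus strand, chr7:19181050-19181169: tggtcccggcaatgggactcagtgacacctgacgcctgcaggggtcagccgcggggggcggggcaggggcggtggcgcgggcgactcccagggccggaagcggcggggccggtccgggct
Casz1 start 2, plus strand, chr4:148889227-148889346: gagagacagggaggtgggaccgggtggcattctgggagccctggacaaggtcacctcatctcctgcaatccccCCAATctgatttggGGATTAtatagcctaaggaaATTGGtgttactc

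The windows differ within a gene. The window around Gng13 start 2 had a ratio of observed to expected CpG of 0.209 and that around start 3, 357 bases further on, had 0.879. For Egfl7 the ratio was 0.311 at start 1 and 0.945 at start 2, for Prkcz 0.824 and 0.494, and for Eml2 0.536 and 0.667. The ratio was taken over the RefSeq window of 250 bases before to 50 bases after the start. It was 0.159 at Casz1 start 2, the only start printed that held TAATCC. Casz1 start 1, which is not printed, had a ratio of 1.08 and none of the 4 motifs in its window. That start was also highest in rods, at 9.89 CPM.

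Where starts splice to the same exon, the RNA differs up to the first junction. Guanylate kinase, encoded by Guk1, shows this. The last 15 bases of the first exon are in capitals and the first 15 bases of the second exon in lower case, from GENCODE M21 transcripts on GRCm38.
Guk1 start 1: GGGTCCCCGCGGACGgcatggcaggaccta
Guk1 start 2: CAACACATCAAGTAGgcatggcaggaccta
Eml2 start 1: TGCAATACTGCAACGatgataatctgtccg
Eml2 start 2: TAGTTTTGGAATTGGgaaaaccaaagaagt

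Both Guk1 first exons join the same second exon at chr11:59186774-59186887. In M21 they hold 61 and 25 coding bases, both open with ATG, and the whole coding sequences have 657 and 621 bases. The Eml2 first exons hold 148 and 20 coding bases and splice to different second exons, with 2523 and 1947 coding bases in all.

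Most genes had few starts. There were 2 first-exon groups in 2186 genes, 3 in 652, 4 in 222 and 5 or more in 169, with a maximum of 12 in Kif1b, which encodes a kinesin motor. Neighbouring starts lay a median of 11093 bases apart (quartiles 1910 and 35541), and 52.1% of the 5005 distances were over 10000 bases. The most upstream group held the most counts in 1837 genes (56.9%). In 976 genes (30.2%) 1 group held 90% or more of the counts.

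A group is called separate when its first exon overlaps no later exon of another multi-exon isoform of the gene; any other group can be a start inside the transcript or a cDNA that ended early, and which of these it is was not tested. Separate groups were 5750 of the 8234 (69.8%) and held 91.6% of the grouped counts. Of the separate groups, 67.5% started within 100 bases of a start of the gene in GENCODE M21, against 16.8% of the others. For starts in RefSeq the shares were 39.2% and 4.47%. Of the separate groups, 1189 (20.7%) had a first exon that overlapped a later exon of the gene in M21, against 98.4% of the others. Such a separate group can also be a cDNA that ended early, which was not tested either. The median count was 109 for separate and 19 for other groups. Every model had a count in rods and every isoform without a model had none, so a first exon that rods never used is in no group. Isoforms outside the groups, which have no model or a single exon, held 0.306 to 0.886% of the counts of these genes in a class.

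A gene was called switched in a pair of classes when a different group led in each and the share of 1 of these groups differed by at least 50 percentage points. By this rule 327 of 1846 genes were switched in at least 1 pair, which is 17.7%. Separate groups led in both classes in 231 of them. The same rule applied to last-exon groups called 13% of 1846 genes, and applied to single isoforms called 13.8% of 5455 genes. The lists of genes differ and share counts, so the percentages are set side by side without a comparison. A total of 126 genes were switched in 1 pair only.

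The size of the differences varied widely between genes. The largest difference in share over all pairs had a median of 18.1 percentage points. It stayed under 10 points in 596 genes (32.3%), reached 25 points in 725 (39.3%), 75 points in 123 and 90 points in 38. Among genes with a different leading start in some pair, the largest difference of Cxxc5, Dnpep and Atp9a lay just inside the limit of 50 points, at 50.2, 50.3 and 50.6 points. Fbxo27, Rcbtb2 and Etnk1 lay just outside, at 49.9, 49.9 and 49.3 points.

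**Figure D1:**
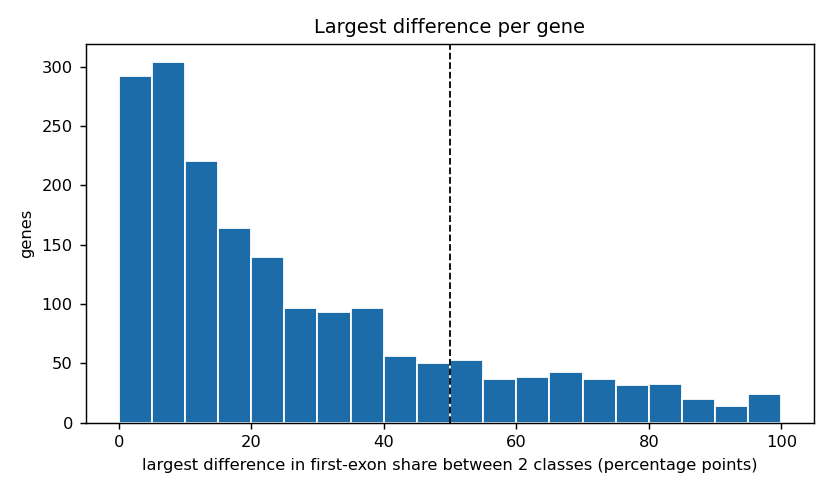
Largest difference in first-exon share over all pairs of classes, in percentage points on the horizontal axis, and the number of genes on the vertical axis, for the 1846 genes compared. The genes pile up at small differences, with 596 under 10 points, and a tail of 38 genes reaches 90 points or more.

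The pairs of classes differed in how many genes were switched. Starts without a rod count are in no group, so a switch to a start that rods never used could not be called in any pair. The part of this filter in the counts per pair was not tested. The fewest were between amacrine and ganglion cells, 9 of 533 (1.69%), and between cones and rods, 21 of 750 (2.8%). Intermediate shares were found for bipolar cells against Müller glia (36 of 705, 5.11%), against cones (39 of 731, 5.34%), against rods (91 of 1414, 6.44%), against ganglion cells (33 of 508, 6.5%) and against amacrine cells (96 of 1333, 7.2%). Müller glia differed from cones in 32 of 558 genes (5.73%), from rods in 43 of 724 (5.94%), from ganglion cells in 33 of 423 (7.8%) and from amacrine cells in 64 of 707 (9.05%). The most were between photoreceptors and the amacrine or ganglion column. Amacrine cells differed from rods in 159 of 1459 genes (10.9%) and from cones in 86 of 705 (12.2%). Ganglion cells differed from cones in 45 of 413 (10.9%) and from rods in 60 of 503 (11.9%).

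The same isoform counts were also read by single isoform and by last exon. A single isoform includes its first exon, so these values are not independent of the first-exon shares and do not support the order of pairs. With the rule on single isoforms, cones and rods were switched in 0.712% of 2950 genes and amacrine and ganglion cells in 1.94% of 2112. Over the 15 pairs this share ran from 0.712% to 8.28%, the latter between Müller glia and ganglion cells, and bipolar cells against cones had 1.68% of 2912. On last exons, the shares were 1.06% of 659 genes for cones and rods and 1.37% of 365 genes for amacrine and ganglion cells. Bipolar cells against cones had nearly the same share there, 1.41%. The rod markers in the cone column, at 20.5% of their level in rods, stand beside the low count for cones and rods. Ganglion markers in the amacrine column summed to 699 CPM, or 3.92% of their level in the ganglion column and more than the 686 CPM of amacrine markers there, and stand beside the low count for amacrine and ganglion cells. Their part in these counts was not tested.

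**Figure D2:**
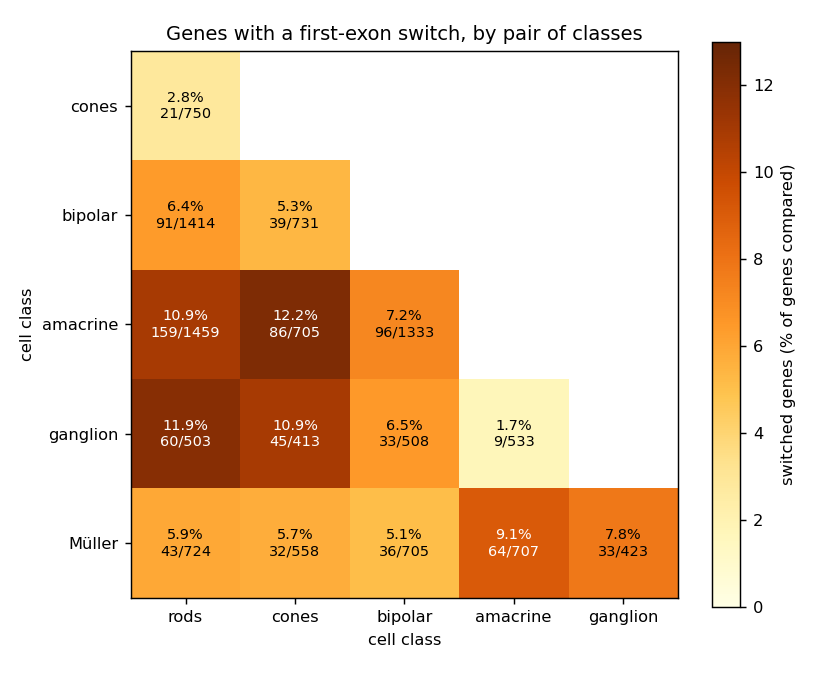
Percentage of compared genes with a first-exon switch in each of the 15 pairs of cell classes, as a grid with a class on each axis, colour for the percentage and the counts of switched and compared genes in each cell. Amacrine against ganglion cells and cones against rods are palest, at 1.69% and 2.8%, and amacrine cells against cones darkest at 12.2%.

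Because each pair has its own genes, the pairs were also read over the 382 genes with 50 counts in all classes. There, 4 genes (1.05%) were switched between amacrine and ganglion cells, 6 (1.57%) between cones and rods and 8 (2.09%) between amacrine and bipolar cells. At the other end were 29 (7.59%) between amacrine cells and cones, 30 (7.85%) between amacrine cells and rods, 34 (8.9%) between cones and ganglion cells and 35 (9.16%) between rods and ganglion cells. In 289 of these genes the same group led in all 6 classes. Where the leader was not shared, ganglion cells stood alone in 11 genes, rods in 9, Müller glia and cones in 6 each, amacrine cells in 4 and bipolar cells in 2. Amacrine and ganglion cells together led with another group than the rest in 9 genes, and cones with rods in 7.

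Some genes were switched in every pair across a division of the classes. Rods and cones were switched against both amacrine and bipolar cells in 17 of 686 genes (2.48%), among them Prkcz, Hk1, Celf2, Map2, Ctnna1, Snx10 and Pcbp3. Against amacrine and ganglion cells there were 25 of 410 (6.1%). Prkcz, Ctnna1, Snx10 and Pcbp3 were again among them, Hk1, Celf2 and Map2 were not, and Guk1, Ptp4a3, Dtnbp1, Ank2 and Acer2 were further members. Amacrine cells were switched against bipolar cells, cones and rods in 27 of 686 genes (3.94%), with Casz1, Dclk1 and Arhgap24 among them. Müller glia were switched against amacrine cells, bipolar cells, cones and rods in 7 of 548 (1.28%): Acsl6, Lmo2, Plekhb1, Ptprg, Tprkb, Tsc22d3 and Zfand6. The named genes are described next by the roles of their products, with the share of 1 start in every class that reached 50 counts and, in parentheses, the gene's grouped counts in that class.

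**Figure D3:**
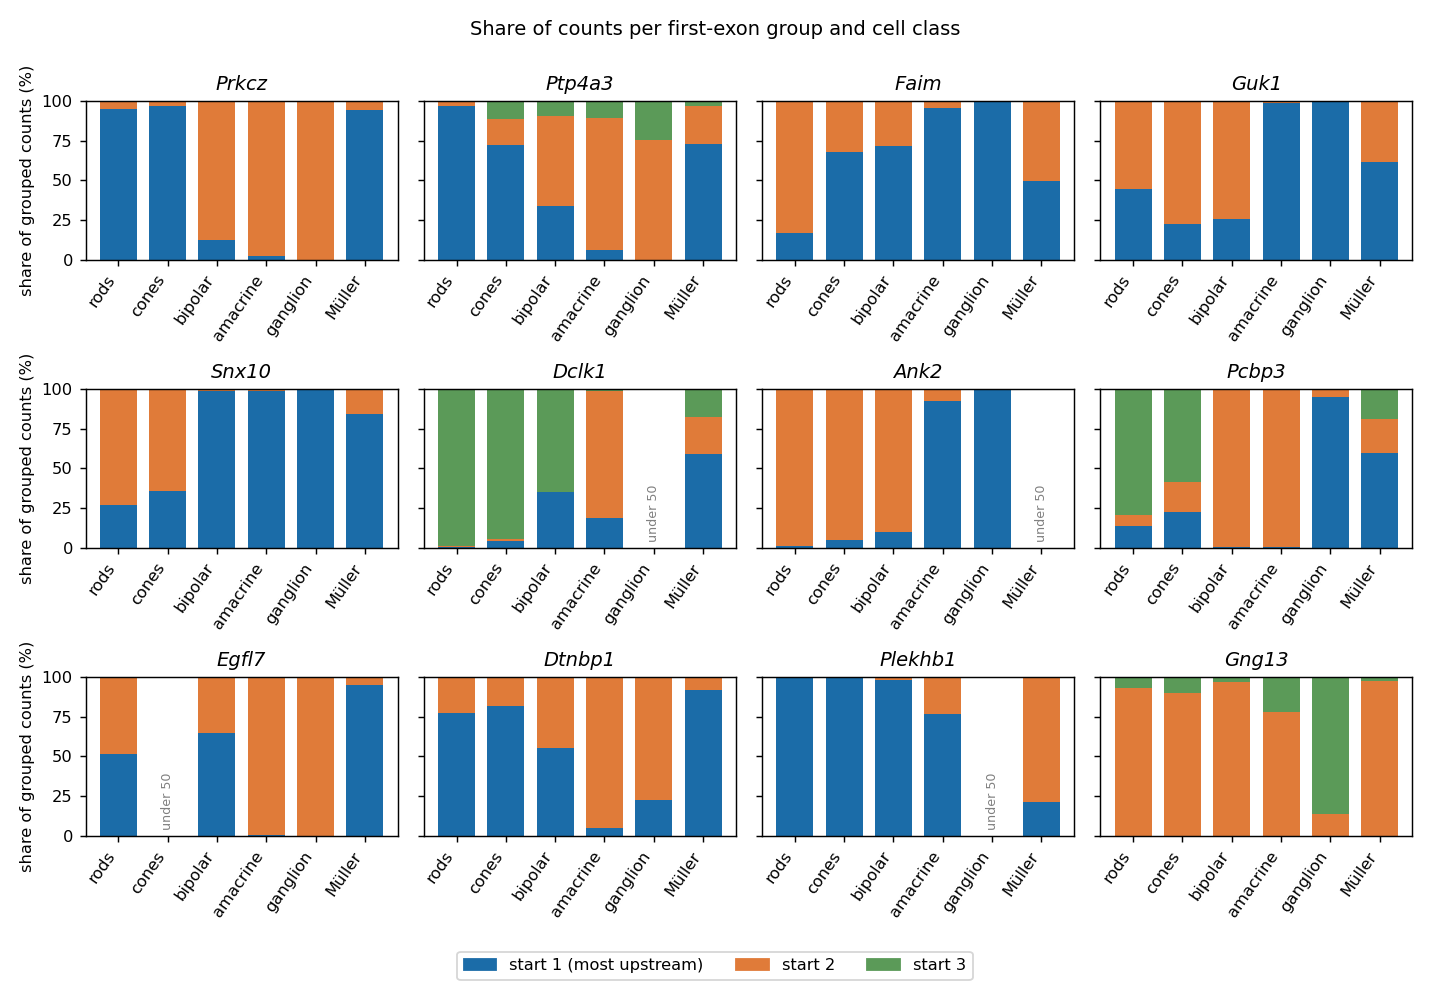
Share of each first-exon group, in percent of the gene's grouped counts (vertical axis, stacked bars coloured by start), in the 6 cell classes for 12 named genes; classes with fewer than 50 counts are left empty. In Prkcz start 1 fills the bars of rods, cones and Müller glia and start 2 those of bipolar, amacrine and ganglion cells, whereas in Plekhb1 Müller glia and in Gng13 ganglion cells stand apart.

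Among kinases and signalling proteins, Prkcz had the clearest division. Its upstream first exon (chr4:155361152-155361361, GRCm38, minus strand) carries the start codon of the full-length kinase in M21. The downstream first exon (chr4:155345450-155345772) lies 15589 bases further on, and its transcript has the start codon in a later exon; the corresponding shorter transcript is known from brain as the source of PKM-zeta, which lacks the regulatory part. The downstream start held 4.91% in rods (out of 4171 counts), 3.22% in cones (311), 87.4% in bipolar cells (515), 97.8% in amacrine cells (6958), 100% in ganglion cells (530) and 6% in Müller glia (50). Rods, cones and Müller glia thus used the upstream start and the other classes the downstream one, with no overlap between these sets of values. The 0 upstream counts in ganglion cells allow a share of up to 0.566%, and the upstream share in cones had an interval of 94.2 to 98.4%. In level, the upstream start had 71.5 CPM in rods and the downstream start 141 CPM in amacrine and 151 CPM in ganglion cells. The upstream level in Müller glia was 10.7% of that in rods, where rod markers stood at 6.85%.

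Dclk1 encodes doublecortin-like kinase 1, which has a microtubule-binding part and a kinase part, and is known for separate promoters. Its 3 starts span 285353 bases. The third (chr3:55527879-55528041) held 99% in rods (out of 1321 counts), 94.6% in cones (74), 64.8% in bipolar cells (54), 1.56% in amacrine cells (835) and 17.8% in Müller glia (73). Amacrine cells used the second start (chr3:55461728-55462082), with 79.4% of counts, and Müller glia the first (chr3:55242526-55242751), with 58.9%. The interval for the third start was 0.832 to 2.65% in amacrine cells and 98.3 to 99.5% in rods. The models that stand for the third start have 2 exons and no coding sequence in M21.

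Gng13 encodes the gamma subunit of the G protein in ON bipolar cells and had the most counts of all switched genes, 329145 of them in bipolar cells. Its starts 2 (chr17:25717171-25717277) and 3 (chr17:25717528-25717581) are 357 bases apart and both have the start codon in a later exon, so the coding part is shared. Start 3 held 6.65% in rods (out of 24998 counts), 10.1% in cones (2611), 3.28% in bipolar cells (329145), 21.7% in amacrine cells (2378), 86.2% in ganglion cells (558) and 2.57% in Müller glia (2021). Ganglion cells were the only class led by start 3, with 11 to 16.9% for the share of start 2 against 96.6 to 98.1% in Müller glia. The level of start 2 was 10973 CPM in bipolar cells, 421 CPM in rods and 321 CPM in cones and in Müller glia. It was 38.6 CPM in amacrine and 21.9 CPM in ganglion cells. Bipolar markers stood at 3.58% of their bipolar level in rods, 2.86% in cones and 3.2% in Müller glia. They stood at 0.427% in amacrine and 0.00486% in ganglion cells, and their part in these shares was not tested.

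Guk1, the kinase that recycles GMP and thereby serves cGMP supply in photoreceptors, had its downstream start (chr11:59187703-59187741) 4071 bases after the upstream one. That start held 55.6% in rods (out of 114613 counts), 77.3% in cones (41160), 74.2% in bipolar cells (89503), 1.38% in amacrine cells (40670), 0.0419% in ganglion cells (2386) and 38.2% in Müller glia (2903). Cones and bipolar cells had the highest shares, rods used both starts, and amacrine and ganglion cells hardly used it. The upstream start ran from 293 CPM in Müller glia to 1277 CPM in cones, while the downstream start ran from 0.285 CPM in ganglion cells to 4355 CPM in cones. The downstream start thus varied more between classes than the upstream one. In M21 both transcripts have their start codon in the first exon, so the encoded proteins differ at the amino terminus.

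Faim, an inhibitor of Fas-induced cell death, had 90347 counts in rods. Its upstream start (chr9:98986373-98986512) was used at 125 to 276 CPM in all 6 classes. The downstream start (chr9:98991831-98991852), a first exon of 22 bases, held 83% in rods (out of 90347 counts), 32.1% in cones (1494), 28.3% in bipolar cells (5057), 4.58% in amacrine cells (9031), 0.166% in ganglion cells (603) and 50.2% in Müller glia (1603). Its level was 1353 CPM in rods and at most 131 CPM elsewhere, which is 9.7% of the rod level in Müller glia, 4.84% in cones and 3.64% in bipolar cells. In cones this is below, and in Müller glia and bipolar cells above, the relative level of rod markers. In amacrine cells the downstream start was at 0.634% of the rod level, beside 0.632% for rod markers. In ganglion cells these values were 0.0211% and 0%. The part of rod RNA in these shares was not tested. The start codon lies in a later exon for both, at different positions.

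Ptp4a3, a membrane-bound phosphatase, had 54302 counts in rods on 3 starts. The first (chr15:73723145-73723515) held 97% in rods (out of 54302 counts), 72.1% in cones (2005), 33.7% in bipolar cells (4938), 6.36% in amacrine cells (5333), 0% in ganglion cells (238, which allows up to 1.26%) and 72.7% in Müller glia (667). The second, 1653 bases downstream (chr15:73724798-73724848), led in amacrine, bipolar and ganglion cells, with 82.5%, 56.9% and 75.2%. The first start reached 950.5 CPM in rods. It stood at 20.8% of the rod level in cones and 8.32% in Müller glia, close to the 20.5% and 6.85% of the rod markers. In bipolar and amacrine cells it stood at 6.03% and 0.739%, beside 1.89% and 0.632% for the rod markers. Their part in these shares was not tested. The second start varied less, from 22.8 CPM in rods to 96.9 CPM in bipolar cells. All 3 starts lead to the same start codon in a later exon.

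Arhgap24, a GTPase-activating protein, was the named gene of amacrine cells. Its downstream start, 76354 bases on (chr5:102845276-102846169), held 0.60% in rods (out of 3166 counts), 1.36% in cones (221), 14% in bipolar cells (335) and 86.1% in amacrine cells (864). Of the 4 classes that could be read, amacrine cells alone were led by it; the ganglion column had 5 Arhgap24 counts, all on this start. The intervals were 83.6 to 88.3% in amacrine cells and 0.362 to 0.936% in rods. The start codon lies in this first exon, but in a later exon for the upstream start.

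Gnas, which encodes the stimulatory G protein alpha subunit and is a textbook case of alternative promoters, was not switched. The second of its starts (chr2:174330287-174330434), whose first exon holds the start codon of the alpha subunit, held 90.7% in rods (out of 3146 counts), 85.7% in cones (1483), 61.3% in bipolar cells (10657), 65.4% in amacrine cells (21313), 72% in ganglion cells (2244) and 94.4% in Müller glia (915). It led in every class, and the largest difference was 33.1 points, between bipolar cells (60.4 to 62.2%) and Müller glia (92.7 to 95.8%). The first start (chr2:174327757-174327941) has no coding sequence in the M21 transcript that stands for it. The first exon of the second start overlaps a later exon of the gene in M21, and it begins at an M21 start.

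Genes of the cytoskeleton and of cell adhesion are described next. Ctnna1 encodes alpha-catenin, which links cadherins to actin. Its downstream start on chromosome 18 (chr18:35215092-35215278), 96205 bases from the upstream one, held 1.55% in rods (out of 1294 counts), 0% in cones (141, which allows up to 2.13%), 73.1% in bipolar cells (245), 98.4% in amacrine cells (966), 100% in ganglion cells (64) and 8.11% in Müller glia (74). Cones, Müller glia and rods were on one side, and amacrine, bipolar and ganglion cells on the other. Only 141 and 64 counts support the pair with the largest difference, cones and ganglion cells, and the 0 upstream counts in ganglion cells allow a share of up to 4.69%.

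Ank2 encodes ankyrin-B, an adaptor between membrane proteins and spectrin. Its downstream start (chr3:127161679-127161928), 247070 bases into the gene, held 99% in rods (out of 594 counts), 94.9% in cones (59), 90.0% in bipolar cells (578), 7.44% in amacrine cells (618) and 0% in ganglion cells (62, which allows up to 4.84%). Rods, cones and bipolar cells stood together, away from amacrine and ganglion cells. These shares leave out isoforms that have no multi-exon model, which are many in this gene: with all 2675 rod counts of Ank2 as the denominator, the largest difference fell from 99.0 to 22.0 points, so the value holds for the grouped isoforms only.

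Ablim1 encodes an actin-binding LIM protein of which the retina is a known site of expression. Its start 3 (chr19:57118752-57119024) held 4.49% in rods (out of 624 counts), 94.6% in bipolar cells (349), 99.3% in amacrine cells (288) and 86.4% in Müller glia (66). Rods used the second start (chr19:57215714-57215965), with 80.8%, and the first (chr19:57314693-57314911), with 14.7%. The intervals for the third start were 97.5 to 99.9% in amacrine cells and 3.0 to 6.42% in rods. The 120 bases before the second start hold TATAAA, and the other starts of the gene hold none of the 4 motifs in that stretch.

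Nav3, a neuron navigator that binds microtubule ends, could be read in 2 classes. Its start 3 (chr10:109723697-109723801), 732043 bases from the first, held 98.5% in rods (out of 536 counts) and 1.32% in amacrine cells (1890). Amacrine cells used the first start (chr10:110455650-110455844), with 95.6%. The intervals for the third start were 0.858 to 1.95% and 97.1 to 99.4%.

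Eml2 had a different leading start in Müller glia. Its downstream start (chr7:19181170-19181223), 4749 bases from the upstream one, held 14.4% in bipolar cells (out of 125 counts), 2.59% in amacrine cells (694), 0% in ganglion cells (119, which allows up to 2.52%) and 98.4% in Müller glia (123). The level of that start was 19.7 CPM in Müller glia and at most 0.62 CPM in any other class, and the upstream start was at 33.9 CPM in ganglion and 14 CPM in amacrine cells. The interval in Müller glia was 94.2 to 99.8%. In rods, which were too shallow to be compared, 20 of 37 counts fell on the downstream start. The Müller glia column also held 8826 CPM of pigment epithelium, 1238 CPM of microglial and 111 CPM of astrocyte markers, and their part in the values for Eml2 and Plekhb1 was not tested. Each first exon has its own start codon.

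Dpysl3 (CRMP4), which binds tubulin and actin in growing axons, had 3 starts on chromosome 18 and another pattern. The most downstream start (chr18:43345491-43345558) held 2.59% in rods (out of 8596 counts), 55.6% in cones (2601), 8.12% in bipolar cells (345), 9.35% in amacrine cells (139), 0% in ganglion cells (81, which allows up to 3.7%) and 2.14% in Müller glia (140). It led in cones only, at 198 CPM against 4.02 CPM in rods. Bipolar cells and rods were led by the first start, with 67% and 51%, and the other classes by the second. The first and second starts each have a start codon in their first exon.

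Plekhb1, a pleckstrin-domain protein of photoreceptors, was the named gene of Müller glia. Its downstream start (chr7:100658293-100658456), 3900 bases on, held 0.602% in rods (out of 10969 counts), 0.0477% in cones (4191), 1.76% in bipolar cells (1423), 23.1% in amacrine cells (121) and 78.5% in Müller glia (395). Of the 5 classes that could be read, Müller glia alone were led by it (74.1 to 82.4%). In Müller glia the downstream start was at 50.5 CPM and the upstream start at 13.9 CPM, against 573 CPM of the upstream start in cones and 197 CPM in rods. The start codon lies in a later exon for both, at different positions.

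Genes of metabolism and mitochondria followed several patterns. Hk1 encodes hexokinase 1, the first enzyme of glycolysis. Its downstream start (chr10:62327403-62327767), 12396 bases on, held 72.7% in rods (out of 4838 counts), 67.9% in cones (246), 2.18% in bipolar cells (1740), 12.1% in amacrine cells (372) and 7.35% in Müller glia (68). The photoreceptors were led by it and the other classes that could be read were not. The upstream start had an interval of 97 to 98.5% in bipolar cells and 26.1 to 28.6% in rods. The downstream level of 63.4 CPM in rods compared with 22.9 CPM in cones and at most 1.31 CPM in the other classes.

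Pmvk, phosphomevalonate kinase of sterol synthesis, was the named gene of cones. Its upstream start (chr3:89454664-89454739) held 13.5% in rods (out of 7425 counts), 58.6% in cones (1193), 11.2% in bipolar cells (3215), 0.151% in amacrine cells (10573), 0% in ganglion cells (958, which allows up to 0.313%) and 14.4% in Müller glia (374). Cones alone were led by it (55.7 to 61.4%), at 95.7 CPM against 18.1 CPM in rods. The downstream start, 4454 bases on, has the start codon in its first exon, and the upstream one in a later exon.

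Dcxr, L-xylulose reductase, was the named gene of bipolar cells. Its upstream start (chr11:120730745-120730904), which lies 3623 bases from the nearest start of the gene in M21, held 2.37% in rods (out of 253 counts), 79.2% in cones (120), 75% in bipolar cells (1258), 0.0839% in amacrine cells (3575), 0% in ganglion cells (139, which allows up to 2.16%) and 13.9% in Müller glia (402). Bipolar cells and cones stood together. The downstream start (chr11:120727178-120727244) held the counts elsewhere, up to 74 CPM in amacrine cells. The cone share had an interval of 70.8 to 86%.

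Acer2, an alkaline ceramidase of the Golgi, had its downstream start (chr4:86930691-86930842) 56277 bases after the upstream one. That start held 2.33% in rods (out of 814 counts), 38% in cones (108), 8.76% in bipolar cells (605), 99.9% in amacrine cells (669) and 100% in ganglion cells (96). The upstream start in rods had an interval of 96.4 to 98.6%. Neither M21 transcript that stands for a start has a coding sequence.

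Lrpprc, a regulator of mitochondrial mRNA, was compared in amacrine cells and rods only. Its downstream group (chr17:84740070-84740414) held 3.07% in rods (out of 228 counts) and 100% in amacrine cells (2300). In amacrine cells the interval was 99.8 to 100%. That first exon lies 9230 bases from the nearest M21 start and overlaps a later exon of the gene in M21, so it may be a start or a cDNA that ended early; which was not tested. Its level was 47.7 CPM in amacrine cells and at most 2.28 CPM elsewhere.

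RNA-binding proteins and transcription factors were also among the switched genes. Celf2, a regulator of splicing, had 2 main starts 12472 bases apart. The downstream one (chr2:6872356-6872474) held 78.4% in rods (out of 561 counts), 67.3% in cones (101), 9.76% in bipolar cells (205), 1.33% in amacrine cells (225) and 26.9% in Müller glia (93). Photoreceptors were led by it, and amacrine cells, bipolar cells and Müller glia by the upstream start (chr2:6884852-6884946). The intervals were 0.276 to 3.85% in amacrine cells and 74.8 to 81.8% in rods.

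Msi1 (Musashi 1), an RNA-binding protein that promotes photoreceptor-specific exons, had its most downstream start at chr5:115434996-115435131. This start held 52.9% in rods (out of 1567 counts), 78.3% in cones (120) and 2.04% in amacrine cells (147). Amacrine cells were led by the second start (chr5:115429699-115429806), with 55.8%, whose first exon holds the start codon. The third start, with 42.2% in amacrine cells and 39.7% in rods, lies in a later exon of other isoforms.

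Pcbp3, a poly(rC)-binding protein, had 3 starts and a different leader in 3 sets of classes. The first (chr10:76961748-76961887) held 14.1% in rods (out of 3471 counts), 22.4% in cones (331), 0.308% in bipolar cells (4544), 0.827% in amacrine cells (11612), 94.7% in ganglion cells (264) and 59.6% in Müller glia (89). The second (chr10:76822730-76822797), 139090 bases on, held 98.7% in amacrine and 99.1% in bipolar cells. The third (chr10:76816610-76816706) held 79.1% in rods and 58.3% in cones. Ganglion cells and Müller glia were led by the first, and the interval in ganglion cells was 91.3 to 97.1%.

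Casz1, known in mouse retina for its role in rod and interneuron fate, had another leading start in amacrine cells than in the other 4 classes that could be read. Its second start (chr4:148889381-148889484) held 90.5% in rods (out of 5876 counts), 88.6% in cones (255), 95.8% in bipolar cells (95), 3.14% in amacrine cells (573) and 80.3% in Müller glia (76). Amacrine cells were led by the third (chr4:148941076-148941414), with 93.4 to 97% for its share and 11.3 CPM against at most 3.7 CPM elsewhere. The ganglion column, which was too shallow to be compared, had 13 Casz1 counts, all on the third start. The first exon of start 3 overlaps a later exon of the gene in M21 and lies 7962 bases from an M21 start. The upstream stretch of the second start, with TAATCC, is printed above. This start was at 95.9 CPM in rods, 30.9 CPM in cones and at most 9.95 CPM in the other classes. Its level in cones was 32.2% of that in rods, in Müller glia 10.4% and in bipolar cells 3.27%. Rod markers stood at 20.5%, 6.85% and 1.89% there, and their part in these shares was not tested. The first start, with none of the 4 motifs in its window, was at 9.89 CPM in rods and 3.15 CPM in cones.

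Trafficking and synaptic genes completed the named set. Dtnbp1 encodes dysbindin, a subunit of the BLOC-1 complex that sorts cargo to lysosome-related organelles and synaptic vesicles. Its downstream start (chr13:44946869-44947144), 54947 bases on, held 22.7% in rods (out of 2185 counts), 18.4% in cones (174), 44.4% in bipolar cells (774), 95.1% in amacrine cells (77813), 77.2% in ganglion cells (731) and 8.23% in Müller glia (158). The level in amacrine cells was 1534 CPM, against 161 CPM in ganglion cells and at most 11.9 CPM elsewhere. The upstream start (chr13:45001917-45002091), which holds the start codon, stayed between 14.8 and 78.3 CPM. The transcript of the downstream start has 4 exons against 10, no coding sequence in M21, and a first exon that overlaps a later exon of the gene there. The interval was 95 to 95.3% in amacrine cells and 4.45 to 13.7% in Müller glia.

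Snx10, a sorting nexin of endosomes, was the named gene of rods. Its downstream start (chr6:51544566-51544752), 20584 bases on, held 72.7% in rods (out of 1455 counts), 64.4% in cones (188), 1.45% in bipolar cells (484), 1.21% in amacrine cells (2480), 0% in ganglion cells (242, which allows up to 1.24%) and 15.5% in Müller glia (187). Rods and cones were led by it, at 19.1 and 16.6 CPM, and the other classes by the upstream start. The interval in rods was 70.3 to 75%. The first exon of the downstream start overlaps a later exon of the gene in M21, and it begins at an M21 start. Both transcripts have the same start codon in a later exon.

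Egfl7 divided Müller glia from amacrine and ganglion cells. Its downstream start (chr2:26586639-26586681), 2775 bases on, held 48.2% in rods (out of 83 counts), 35.2% in bipolar cells (310), 99.6% in amacrine cells (1643), 100% in ganglion cells (77) and 4.77% in Müller glia (671). The upstream start was at 104 CPM in Müller glia (93.3 to 96.7% of counts) and at most 6.93 CPM elsewhere. Egfl7 is known as an endothelial gene, and the single endothelial marker found was highest in the Müller glia column, at 7.66 CPM against at most 0.483 CPM in the others; its part in the switch was not tested.

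Cacnb2, the beta subunit of the photoreceptor calcium channel, was compared in amacrine cells and rods. Its first start (chr2:14604306-14604558) held 1.85% in rods (out of 216 counts) and 88% in amacrine cells (125). Rods used the second (chr2:14763129-14763992), with 77.8%. With all isoforms of the gene as the denominator the difference fell from 86.1 to 41.8 points, since 127 of 252 amacrine counts had no multi-exon model.

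Ctbp2, the source of the synaptic ribbon protein RIBEYE, was switched between bipolar cells and cones. Its second group (chr7:133082466-133082587) held 73.2% in rods (out of 254 counts), 26.2% in cones (61), 79.5% in bipolar cells (205) and 64.3% in amacrine cells (1040). The intervals were wide, 73.3 to 84.8% in bipolar cells and 15.8 to 39.1% in cones. Both groups stand for transcripts of 11 exons, and the second has a first exon of 122 bases that overlaps a later exon in M21 and lies 29204 bases from an M21 start, so neither was matched to RIBEYE. Dmd, the remaining textbook gene, had models with a single first-exon group and was not compared.

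**Figure D4:**
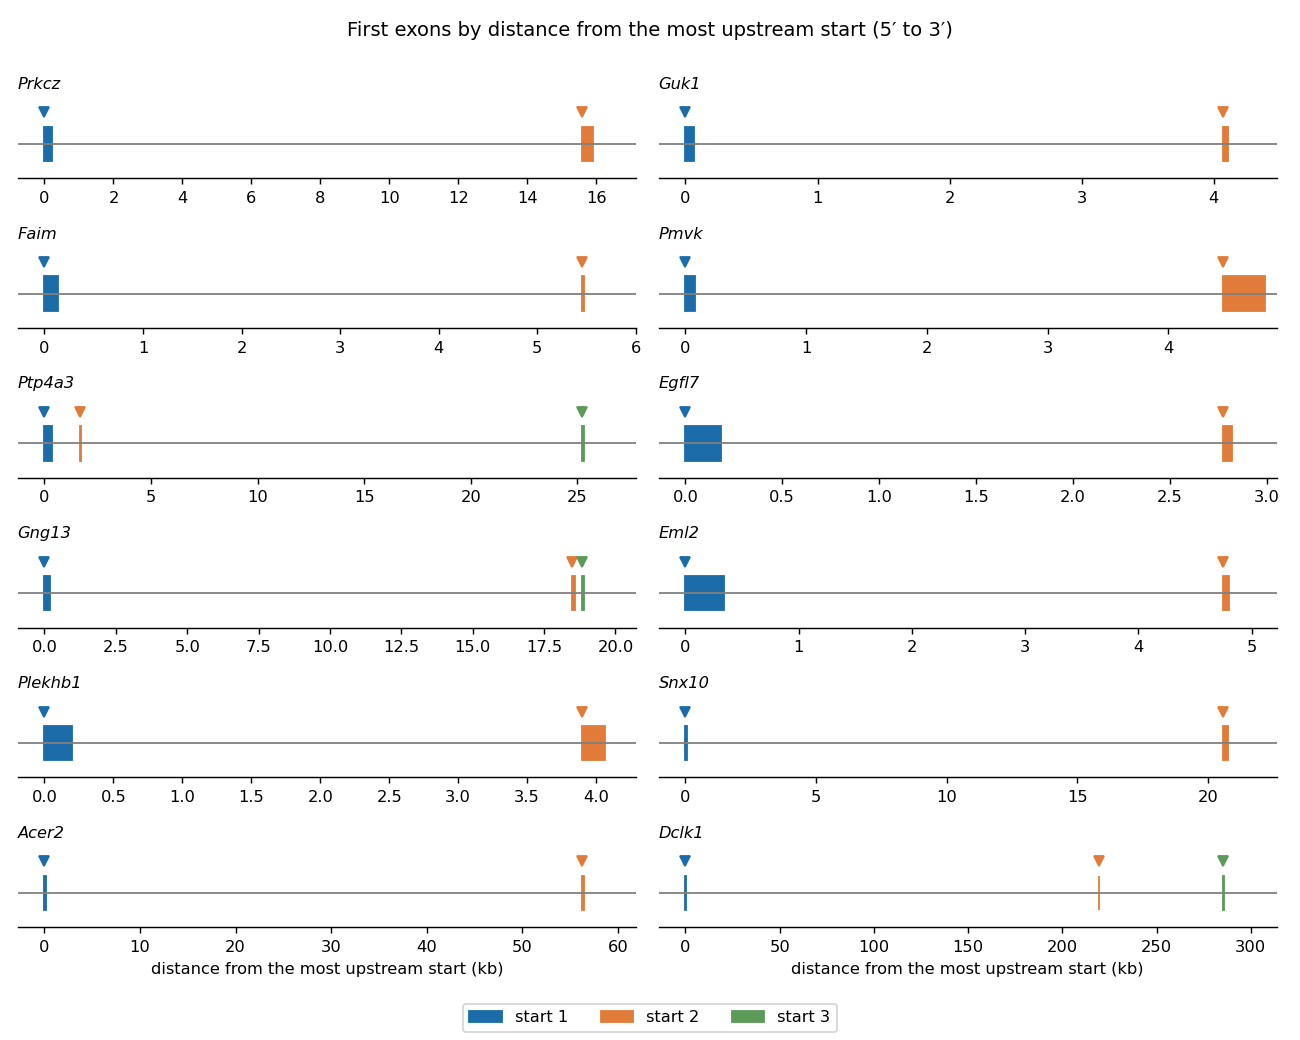
Position of the separate first exons of 12 named genes, as distance in kilobases from the most upstream start along the gene's strand (horizontal axis, with its own scale in each panel); boxes are first exons to scale and triangles mark their starts. Starts 2 and 3 of Gng13 lie 357 bases apart, whereas the starts of Dclk1 span 285353 bases.

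The lists written for the tissue were read by count, beside the 17.7% of all compared genes. Of the textbook alternative-promoter genes, 16 could be compared and 8 were switched, with a median largest difference of 51.1 points against 18.1 for all genes compared. These were Ank2, Ank3, Ctbp2, Dclk1, Dpysl3, Homer1, Macf1 and Pax6. Pax6, the eye and amacrine transcription factor, had the downstream start at chr2:105682508-105682633, which held 46.3% in rods (out of 227 counts), 89.4% in amacrine cells (13928), 15.3% in ganglion cells (85) and 32.2% in Müller glia (171). Bdnf, the neurotrophin, was led by its most downstream start in each class that could be read, from 56.4% in amacrine cells to 94.2% in Müller glia, and was not switched.

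Of the cytoskeletal genes, 8 of 14 were switched, with a median of 54.5 points. 5 of them, Ank2, Ank3, Dclk1, Dpysl3 and Macf1, also stand in the textbook list. Map2, the dendritic microtubule protein, had its start 3 (chr1:66364655-66364776) at 90.1% in rods (out of 3966 counts), 73% in cones (333), 8.38% in bipolar cells (179) and 9.03% in amacrine cells (144). Map1a had its group 3 (chr2:121307326-121307372) at 20% in rods (out of 115 counts), 9.42% in bipolar cells (308), 49.5% in amacrine cells (333) and 65.9% in ganglion cells (123). Tpm1 and Tpm2, tropomyosins with known internal promoters, were not switched: the same start led in both classes of the pair that differed most, by 49.6 and 49 points.

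Among synaptic genes, 4 of 13 were switched, with a median of 12.6 points. Besides Cacnb2 and Ctbp2 these were Dlg2, a postsynaptic scaffold, and Homer1. The downstream start of Dlg2 (chr7:92234980-92235224) held 1.61% in rods (out of 62 counts), 91.8% in bipolar cells (232) and 100% in amacrine cells (94). Among RNA-binding and splicing genes, 2 of 8 were switched, Celf2 and Msi1, and among genes of energy metabolism 1 of 6, Hk1. Pkm and Aldoa, enzymes of glycolysis with many counts, differed by 0.591 and 0.0513 points at most.

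Of 42 genes listed for photoreceptors, 10 had alternative first exons, 7 could be compared and 0 of these were switched, with a median largest difference of 9.48 points. The largest was 45.6 points for the cone transducin subunit gene Gngt2, between amacrine cells (22.7% of 110 counts on the second start) and bipolar cells (68.3% of 439). Nrl, the rod transcription factor, differed by 6.77 points and Gnb3 by 0.47 points. The level of rod markers in the other columns, 0 to 20.5% of that in rods, stands beside these shares; its part was not tested. These lists were written with earlier results known and overlap, so nothing particular to a list is read from the counts.

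In most switched genes both leading starts differed in level, read from the same counts that called the switch. For the pair with the largest difference, each leading start was at least 2-fold higher in its own class in 199 of 327 genes (60.9%). A start with fewer than 3 counts was counted as 3 counts. In the other 128 (39.1%) only 1 of the leading starts was at least 2-fold higher. A change of leader with a large shift in share brings a difference in level of at least 1 start with it. That 0 genes had neither start at 2-fold is therefore no separate evidence, and these values only describe the switches. The summed level of the gene was within 2-fold between the classes in 114 genes (34.9%). Prkcz is a gene in which both starts differed, whereas in Guk1 and Faim the downstream start varied far more over the classes than the upstream one. Switched genes had a median of 1304 counts and the other compared genes 949.

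**Figure D5:**
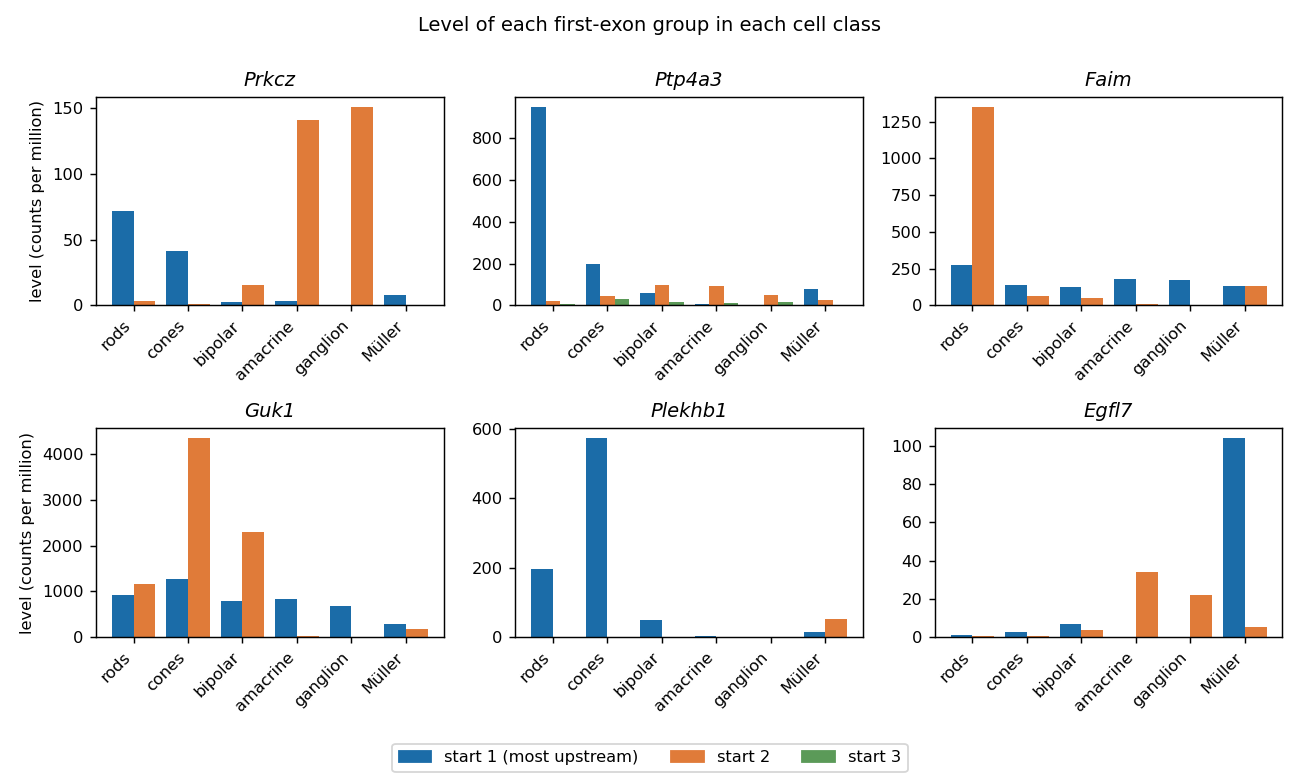
Level of each start in CPM (linear vertical axis from 0, with its own scale in each panel) in the 6 cell classes for 6 named genes, with bars coloured by start. For Prkcz both starts differ between rods and amacrine cells, whereas for Guk1 and Faim the upstream start stays within 293 to 1277 and 125 to 276 CPM and the downstream start varies more.

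Each leading start was represented by its isoform with the most counts over all columns. In 227 of 327 switched genes (69.4%) the representing isoforms ended in overlapping last exons. Of the 3229 genes with alternative first exons, 1883 also had 2 or more last-exon groups, and in the others such overlap was given in advance. A total of 84 genes were switched in both first and last exon, which is 25.7% of the 327 and 35% of the 240 with a last-exon switch. The leading starts lay a median of 13608 bases apart. In 192 genes (58.7%) both were within 100 bases of a start of the gene in M21. An M21 start codon was known for both representing isoforms in 69 genes. The codons differed in 40 of these, as in Prkcz, Guk1 and Eml2, and were the same in 29, as in Gng13, where the alternative exon is noncoding. Shares over all compared genes were not taken for last-exon overlap or start codons, so nothing particular to switched genes is read from them.

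RefSeq had a promoter window for 2317 of the 8234 groups. The median ratio of observed to expected CpG was 0.773 there, against 0.384 over all 32851 windows, and 0.796 for the most upstream groups against 0.709 for separate groups further downstream. In 58 switched genes both leading starts were separate and had a window of their own. The ratio was at 0.6 or more at both starts in 20 of these, below it at both in 8, and on different sides in 30. The upstream start had the higher ratio in 20 of those 30, as in Prkcz, but not in Egfl7 and Gng13.

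The 4 motifs were counted on both strands in the whole 300-base windows. TAATCC was in 7.06% of all windows, TATAAA in 13.6%, CACGTG in 7.15% and CCAAT in 37.4%. Among separate starts of switched genes, TAATCC was in 7 of 87 windows (8.05%) of starts that led in rods and in 2 of 80 (2.5%) of starts that led in the other class. For cones the counts were 3 of 46 and 1 of 44, and for Müller glia 2 of 43 and 0 of 36. Bipolar cells had 4 of 69 and 4 of 67. In amacrine cells, with 2 of 76 and 4 of 76, and ganglion cells, with 0 of 36 and 2 of 32, the leading starts held it less often. These are counts of letters without a test, and a few windows decide them.

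No class used downstream starts throughout. By counts, groups other than the most upstream held 59.7% of the grouped counts in rods, 60.5% in Müller glia, 65.1% in cones, 66.4% in amacrine cells, 69.2% in ganglion cells and 70.4% in bipolar cells. Abundant genes weigh most in these values. As a mean over the 382 genes read in all classes, each with the same weight, the share was 54.0 to 55.9% in every class. Where a gene was switched, the class led by the more downstream of the leading starts was cones in 58.3% of 223 combinations of gene and pair, bipolar cells in 54.2% of 295, Müller glia in 51.4% of 208, amacrine cells in 48.3% of 414, ganglion cells in 45.6% of 180 and rods in 44.9% of 374.

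Groups that start in a later exon of another isoform held 4.81% of grouped counts in ganglion cells, 6.07% in rods, 7.42% in cones, 7.46% in amacrine cells, 12.7% in Müller glia and 13.6% in bipolar cells. Mgarp, a mitochondrial protein of neurons and retina, led these counts in every column. Its second group (chr3:51396427-51396503), which starts at an M21 start, held 93.6 to 95.7% of Mgarp counts in each class, so its start use hardly differed between classes while its level did. Without Mgarp the shares were 2.99% in ganglion cells, 3.27% in amacrine cells, 3.57% in bipolar cells, 3.59% in Müller glia, 4.2% in rods and 4.96% in cones.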

How the data were processed

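Whole-number counts per isoform and cell class were deposited by the authors, with transcript models whose exon start and end positions were used as deposited. The models are named as the product of FLAIR, a long-read isoform program, per the file contents, and mm10 is the build per the submitters' processing notes. Of 122144 splice junctions in models of Ensembl genes, 115580 (94.6%) were in GENCODE M21 on GRCm38, the build of all coordinates. The aligner, the cell typing, the treatment of doublets and whether reads were collapsed to molecules are not given in the sources used here. The models cover 36426 of 44325 isoforms. All 6 count columns were taken as pooled over libraries, and 0 were left unused.

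First exons of multi-exon isoforms that overlap by at least 1 base formed a group. Classes entered with 50 or more grouped counts of the gene. A switch needed another leading group and 50 percentage points. Without replicates no test was made, and depth per column sets the precision. Exact Clopper-Pearson 95% intervals, and upper limits of 3 counts where none was found, describe counting error of independent counts alone. CPM are counts scaled to a column total of 1000000, and levels are not corrected for length. Background came from the same rule on last exons and on single isoforms. The rules were run on simulated data to check the code only. The planted differences lay far above the limit for a switch, and carry-over between columns, repeated reads and shortened cDNA were not simulated. Python 3.11.15, pandas 2.3.3, NumPy 2.4.6, SciPy 1.17.1 and matplotlib 3.10.9 were used.

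Named genes were the 10 switched genes with the largest difference among pairs with 200 counts in each class and separate leading groups, the 5 switched genes with the most counts, for each class the gene whose separate group stood farthest from 3 or more other classes at 200 counts, 4 textbook genes, and up to 3 switched genes per list with 100 counts. Genes under divisions of the classes and the other list members given with values were chosen after their values were seen. The genes studied and the lists were chosen with earlier results of these data known. Alternatives were other minimums and limits, separate groups, joined first exons, equal depth, another denominator and, chosen after seeing the data, genes in all columns, starts near an M21 start, first exons in no later M21 exon, and later-exon shares without Mgarp. The values for 1 rod marker are given only within a sum, and 1 named gene is not reported here. Sequences came from RefSeq windows on GRCm38.p6, whose last 50 bases were identical to M21 transcripts with the same start in 6805 comparisons, and from M21.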

Additional observations from a re-analysis of the deposited data

How the results depend on the processing

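The count of genes with 2 or more first-exon groups, 3229, fell to 2032 with separate groups only and stayed within 1.5 times under the other alternatives. The 327 switched genes became 630 of 2494 with a minimum of 20 counts, 132 of 959 with 200 counts, 123 at 75 percentage points and 105 of 701 at equal depth, of which 100 were among the 327. With groups within 100 bases of an M21 start there were 199 of 927, and with separate groups in no later M21 exon 206 of 1032; both were chosen after seeing the data. Separate groups gave 240 of 1282, 234 of them among the 327, and leaving out the ganglion column gave 305.

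Per pair of columns, a minimum of 100 counts gave, as switched of compared genes, 57 of 503 for amacrine and cone, 37 of 472 for amacrine and Müller, 5 of 374 for amacrine and ganglion, 22 of 513 for bipolar and cone, 19 of 456 for bipolar and Müller, 59 of 993 for bipolar and rod, 16 of 350 for bipolar and ganglion, 15 of 372 for cone and Müller, 25 of 285 for cone and ganglion, 20 of 478 for Müller and rod, 20 of 285 for Müller and ganglion and 36 of 344 for rod and ganglion. With separate groups only there were 23 of 577 for bipolar and Müller and 56 of 1009 for bipolar and rod. At equal depth there were 14 of 421 for amacrine and bipolar, 36 of 379 for amacrine and cone, 29 of 396 for amacrine and Müller, 35 of 373 for amacrine and rod, 13 of 433 for bipolar and cone, 16 of 412 for bipolar and Müller, 21 of 416 for bipolar and rod, 17 of 387 for bipolar and ganglion, 19 of 392 for cone and Müller, 4 of 454 for cone and rod, 14 of 392 for Müller and rod and 34 of 348 for rod and ganglion. Over the 382 genes read in all columns, an alternative added after seeing the data, there were 8 for amacrine and bipolar, 29 for amacrine and cone, 26 for amacrine and Müller, 30 for amacrine and rod, 4 for amacrine and ganglion, 10 for bipolar and cone, 14 for bipolar and Müller, 19 for bipolar and rod, 12 for bipolar and ganglion, 15 for cone and Müller, 6 for cone and rod, 13 for Müller and rod and 35 for rod and ganglion. The share on downstream groups was 66.2% for amacrine, 69.7% for bipolar, 65.6% for cone, 65.3% for Müller, 61.4% for rod and 69.97% for ganglion cells with separate groups only and 55.9% for amacrine, 55.1% for bipolar, 55% for cone, 55.4% for Müller, 54% for rod and 55% for ganglion cells as a mean over genes. The share on groups in later exons was 3.27% for amacrine, 3.57% for bipolar, 4.96% for cone, 3.59% for Müller, 4.2% for rod and 2.99% for ganglion cells without Mgarp. For the named genes, all isoforms as the denominator moved 3 differences, in Ank2, Cacnb2 and Egfl7 (85.5 points), and equal depth moved 11 of 30. Of 214 alternative values 135 stayed within their limits and 79 moved. A reversal could be called only for the differences of named genes, and 0 were. Among the 135 are 30 named differences with joined first exons and 29 with separate groups only. The named groups were mostly separate and over 100 bases apart already, so these alternatives could change little.

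The columns carry no library, so leaving out a replicate was not possible, and scaling a column leaves its shares as they are. No paired analysis was possible because each class has a single column, pooled over libraries. Depth limits the ganglion, Müller glia and cone columns most, where 538 to 767 genes reached 50 counts.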

Other observations

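Müller glia also used other starts in genes outside the named set, which were chosen after their values were seen. Tsc22d3 encodes GILZ, a glucocorticoid-induced leucine zipper protein. Its upstream start (chrX:140542846-140543187) held 12.1% in rods (out of 4419 counts), 4.74% in cones (443), 8.66% in bipolar cells (3278), 14.5% in amacrine cells (20806), 14% in ganglion cells (1481) and 66.1% in Müller glia (700). In level the upstream start was at 75.5 CPM in Müller glia and 62.6 CPM in amacrine cells, while the downstream start was at 38.6 and 369 CPM. Zfand6, a zinc finger protein that binds ubiquitin, had its upstream start (chr7:84689746-84689959) at 22.3% in rods (out of 17003 counts), 17.2% in cones (2516), 25.6% in bipolar cells (6036), 28% in amacrine cells (12871), 32.8% in ganglion cells (530) and 79.6% in Müller glia (888). Bcl2l1, which encodes the survival protein Bcl-xL, had its downstream start (chr2:152830386-152830666) at 13.8% in rods (out of 797 counts), 22.7% in cones (75), 16.5% in bipolar cells (400), 7.48% in amacrine cells (4239), 1.69% in ganglion cells (296) and 66% in Müller glia (50). Acsl6, a fatty acid CoA ligase, had its start 3 (chr11:54314988-54315207) at 0.657% in rods (out of 2132 counts), 0.519% in cones (385), 0.513% in bipolar cells (585), 11.6% in amacrine cells (207) and 63.8% in Müller glia (271). The Müller glia column also holds the highest sums of microglial, pigment epithelium and astrocyte markers, and their part in these shares was not tested.

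Further genes outside the named set, also chosen after their values were seen, had a different leading start in amacrine cells or in rods than in bipolar cells. Impdh1, a retinal enzyme of guanine nucleotide synthesis, had its upstream start (chr6:29216072-29216331) at 95.4% in rods (out of 18234 counts), 92% in cones (2783), 76.3% in bipolar cells (2696), 19.9% in amacrine cells (1136) and 86.1% in Müller glia (165). Kcnab2, a potassium channel beta subunit, had its second start (chr4:152454834-152455043) at 72.2% in rods (out of 668 counts), 78.5% in cones (121), 69.3% in bipolar cells (137), 2.58% in amacrine cells (543) and 0% in ganglion cells (92, which allows up to 3.26%). Prkacb, a catalytic subunit of protein kinase A, had its most upstream start (chr3:146812638-146812990) at 67% in rods (out of 503 counts), 18% in cones (289), 6.82% in bipolar cells (2125), 13.4% in amacrine cells (918), 0% in ganglion cells (103, which allows up to 2.91%) and 22.6% in Müller glia (133), so that rods alone were led by it. Apbb2, an adaptor that binds the amyloid precursor protein, had its downstream start (chr5:66337466-66337682) at 16.1% in rods (out of 366 counts), 15.3% in cones (59), 16.6% in bipolar cells (157), 94.5% in amacrine cells (549) and 99% in ganglion cells (723), with 204 CPM in ganglion and 10.8 CPM in amacrine cells. Atf5, a stress-response transcription factor, had its downstream start (chr7:44815482-44815658) at 65.8% in rods (out of 655 counts), 77.6% in cones (152), 45.3% in bipolar cells (667), 14.5% in amacrine cells (2587), 17.6% in ganglion cells (363) and 19.3% in Müller glia (436).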
